A study of Mus musculus with 2 samples.

Results

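The 9 genes described here carry the creatine kinase and adenylate kinase circuits that move high-energy phosphate through the heart muscle cell. They were chosen by name: the creatine kinases Ckm, Ckb, Ckmt1 and Ckmt2, the creatine transporter Slc6a8, the creatine synthesis enzymes Gatm and Gamt, and the adenylate kinases Ak1 and Ak3. All 9 were found among the 55536 annotated genes of the deposited gene tables. RNA was measured in the hearts of male B6CASTF1/J mice, a first-generation cross between the B6 strain and CAST, a strain derived from wild mice, at 10 days of age. The only group held 2 libraries, called replicate 1 and replicate 2 after their labels, with no treatment, mutation or second stage to compare. Each library was made from 300 ng of total RNA, with ribosomal RNA reduced, strand kept and ERCC control RNAs added. Both labels name a single donor record while numbering the males separately, so SDs measure the spread of these 2 samples, which may be technical.

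Mitochondrial creatine kinase takes phosphate from ATP made inside the organelle and passes it to creatine. The resulting phosphocreatine diffuses to the myofibrils, the sarcoplasmic reticulum and the cell surface, where cytosolic creatine kinase uses it to rebuild ATP beside the enzymes that spend it. Adenylate kinase converts 2 molecules of ADP into ATP and AMP, and the AMP so formed is read by the AMP-activated protein kinase. Heart muscle makes little creatine itself and is known to import most of it from the blood.

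The upstream sequences of the creatine kinase genes with the highest RNA levels are shown because each holds a different set of short motifs. Each run is the 250 bases before a RefSeq start on GRCm38.p6, the patched form of the mm10 build, written 5′ to 3′ along the gene's strand. The windows are chr7:19410844-19411093 on the plus strand for Ckm, chr13:91876886-91877135 on the minus strand for Ckmt2 and chr12:111672339-111672588 on the minus strand for Ckb. Capitals mark matches, on either strand, to the E-box letters CANNTG, the TATA letters TATANA, the CCAAT box CCAAT and the MEF2 motif, which is searched by its consensus and named only.
Ckm: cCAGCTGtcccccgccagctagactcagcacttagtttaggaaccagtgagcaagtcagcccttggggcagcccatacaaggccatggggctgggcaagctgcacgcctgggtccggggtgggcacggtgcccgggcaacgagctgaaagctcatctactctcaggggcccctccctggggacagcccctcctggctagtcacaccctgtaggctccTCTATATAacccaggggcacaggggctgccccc
Ckmt2: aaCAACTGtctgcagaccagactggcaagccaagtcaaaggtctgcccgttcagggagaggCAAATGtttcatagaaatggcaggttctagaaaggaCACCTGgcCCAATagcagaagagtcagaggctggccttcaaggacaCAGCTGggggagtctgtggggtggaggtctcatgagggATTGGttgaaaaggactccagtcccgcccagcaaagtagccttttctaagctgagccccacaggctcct
Ckb: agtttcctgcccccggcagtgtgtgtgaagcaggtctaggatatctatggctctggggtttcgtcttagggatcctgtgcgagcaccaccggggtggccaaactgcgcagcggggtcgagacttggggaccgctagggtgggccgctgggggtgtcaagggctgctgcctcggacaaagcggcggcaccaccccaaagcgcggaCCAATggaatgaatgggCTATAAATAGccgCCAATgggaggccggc
The Ckm window held 1 E-box, at its far end, and a pair of overlapping TATA matches that began 33 and 31 bases before the start. The Ckmt2 window held 4 E-boxes and 2 CCAAT boxes, with no TATA match. The Ckb window held no E-box, 2 CCAAT boxes, and a MEF2 match 29 bases before the start that overlaps its TATA match. Over 32851 windows of the same length in the RefSeq table, an E-box was present in 66.2%, TATANA in 22.6%, CCAAT in 33.8% and the MEF2 motif in 2.92%. A match describes letters and not a used site, and the windows follow RefSeq starts, whereas the quantified transcript Ckm-201 starts 31 bases before the RefSeq start of Ckm. The table had entries for 8 of the 9 genes, and Slc6a8 had none.

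The libraries held 38851514 and 37907585 expected counts for replicates 1 and 2, where an expected count divides a read among the genes it fits. Levels are given as TPM, a transcript abundance that is scaled by transcript length and set to a constant sum in each library. Markers of ventricular heart muscle summed to 33746.6 TPM in replicate 1 and 31427.5 in replicate 2, and 6 skeletal muscle markers to 96.55 and 81.32 TPM. Of the latter, nearly all was the actin Acta1, at 93.41 and 78.75 TPM, which heart muscle also makes, while Tnni2 was at 1.81 and 1.23 TPM and the fast myosin Myh4 was at 0 in both. The hearts differed in markers of other tissue: the summed level of 8 adipocyte markers was 437.11 TPM in replicate 1 and 31.65 in replicate 2, and that of 6 atrial markers was 1513.28 and 281.41 TPM. Over 13211 genes, the median log2 ratio of TPM in replicate 2 over replicate 1 was -0.21. Differences between the hearts are therefore given from TMM-scaled counts, whose median ratio was 0.01.

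Ckm, the muscle-type cytosolic creatine kinase that also docks at the M-band of the sarcomere, had the highest level of the 9 genes. It lies on chromosome 7 (19404776 to 19422841, plus strand) and was measured at 1359.55 TPM in replicate 1 and 1215.07 in replicate 2, a mean of 1287.31 ± 102.163 (SD, n = 2). The values rested on 40951 and 38483 expected counts, and its mean ranked 36 among 22028 protein-coding genes. Ckm was thus among the most abundant messages of these hearts in both libraries. The protein-coding genes nearest to it in level, by Euclidean distance of log2 TPM over the 2 libraries, were the glycolytic enzyme Gapdh, at 1425.88 and 1185.7 TPM, and Tpt1, at 1296.33 and 1184.42 TPM.

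Ckmt2, the mitochondrial creatine kinase of striated muscle, was the next highest. It lies on chromosome 13 (91853387 to 91876885, minus strand) and stood at 362.11 TPM in replicate 1 and 345.85 in replicate 2, a mean of 353.98 ± 11.4976 (SD, n = 2) and a rank of 156. The values lay close together and far from those of Ckm, which exceeded them 3.75-fold in replicate 1 and 3.51-fold in replicate 2. Its nearest protein-coding genes in level were Ldb3, which encodes a Z-disc protein, at 366.96 and 347.39 TPM, and the histone gene H3f3a, at 362.68 and 332.99 TPM.

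Ckb, the brain-type cytosolic creatine kinase, is known as the form that comes before Ckm in striated muscle development and is also made by smooth muscle, nerve and brown fat. On chromosome 12 (111669361 to 111672338, minus strand), it was measured at 58.46 TPM in replicate 1 and 39.31 in replicate 2, a mean of 48.885 ± 13.5411 (SD, n = 2). Replicate 1 was the higher one, and the SD of 27.7% of the mean was the widest of the 9 genes. Ckm exceeded Ckb 23.3-fold in replicate 1 and 30.9-fold in replicate 2. In bulk tissue, fewer cells of a type and less RNA per cell cannot be told apart.

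Ckmt1, the mitochondrial creatine kinase of tissues other than striated muscle, had the lowest level of the 9 genes and few reads. It lies on chromosome 2 (121357714 to 121363737, plus strand) and was at 0.68 TPM in replicate 1 and 0.54 in replicate 2, from 29 and 14 expected counts. It was the only one of the 9 genes under 1 TPM, the level from which a gene is called detected here when both libraries reach it. A count of 3, the upper limit that a count of 0 allows, corresponds to 0.0772 and 0.0791 CPM of the total in replicates 1 and 2, counting error only.

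The split of creatine kinase RNA among the 4 genes was nearly the same in the hearts. Ckm held 76.3% of their summed TPM in replicate 1 and 75.9% in replicate 2, a mean of 76.1% ± 0.311 (SD, n = 2). Ckmt2 held 20.3% and 21.6%, Ckb 3.28% and 2.46%, and Ckmt1 0.0382% and 0.0337%. The cytosolic genes together therefore held 79.6% and 78.4%, and nearly all of the mitochondrial part was Ckmt2. The Ckb share was the one that differed most between the hearts relative to its size.

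Creatine supply was measured at much lower RNA levels than creatine kinase, and the transporter exceeded both synthesis enzymes. Slc6a8, the sodium- and chloride-dependent creatine transporter of the cell surface, lies on chromosome X (73673150 to 73682502, plus strand). Its level was 52.71 TPM in replicate 1 and 43.98 in replicate 2, a mean of 48.345 ± 6.17304 (SD, n = 2). Those values lay inside the range of Ckb, so the pair could not be ordered.

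Gatm, the amidinotransferase that makes guanidinoacetate in the first step of creatine synthesis, lies on chromosome 2 (122594467 to 122611303, minus strand). It stood at 3.15 TPM in replicate 1 and 2.35 in replicate 2, a mean of 2.75 ± 0.565685 (SD, n = 2), from 205 and 163 counts. Gamt, the methyltransferase of the final step, lies on chromosome 10 (80258151 to 80261012, minus strand) and stood at 8.08 and 5.79 TPM, a mean of 6.935 ± 1.61927 (SD, n = 2), from 217 and 165 counts. Both enzymes were detected in both hearts, and neither gene's values overlapped those of the other. Gamt exceeded Gatm 2.57-fold in replicate 1 and 2.46-fold in replicate 2. The transporter exceeded Gatm 16.7-fold and 18.7-fold, and Gamt 6.52-fold and 7.60-fold, in the same order of libraries.

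Ak1, the cytosolic adenylate kinase of muscle, ranked 312 among protein-coding genes and was the highest of the adenylate kinases. It lies on chromosome 2 (32621758 to 32635058, plus strand) and was measured at 217.96 TPM in replicate 1 and 194.38 in replicate 2, a mean of 206.17 ± 16.6736 (SD, n = 2). Ak3, which serves the mitochondrial matrix and uses GTP in place of ATP, lies on chromosome 19 (29020833 to 29047961, minus strand). Its level was 34.81 and 29.59 TPM, a mean of 32.2 ± 3.6911 (SD, n = 2). Ak1 exceeded Ak3 6.26-fold in replicate 1 and 6.57-fold in replicate 2. Ckm in turn exceeded Ak1 by nearly the same factor in both hearts, 6.24 and 6.25. The Ak3 gene overlaps Cdc37l1 on the opposite strand over 5849 bases, introns included, and Cdc37l1 was at 35.72 and 35.77 TPM. Of the words of 31 bases in Ak3 transcripts, 13.0% occur in Cdc37l1 transcripts on the opposite strand. Whether the counting used strand is not given in the sources used here, and without it reads of the overlap cannot be told apart.

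From highest to lowest, the mean levels ran Ckm, Ckmt2, Ak1, Ckb, Slc6a8, Ak3, Gamt, Gatm and Ckmt1. Among the neighbours in that order, only Ckb and Slc6a8 overlapped between libraries, with a ratio of means of 1.01. The other neighbouring means differed between 1.5-fold, for Slc6a8 over Ak3, and 4.64-fold, for Ak3 over Gamt. The 9 genes together summed to 2097.51 TPM in replicate 1 and 1876.86 in replicate 2, which is 0.210% and 0.188% of all TPM. The plot of levels shows that the spread between hearts was small beside the distance between most genes.

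**Figure D1:**
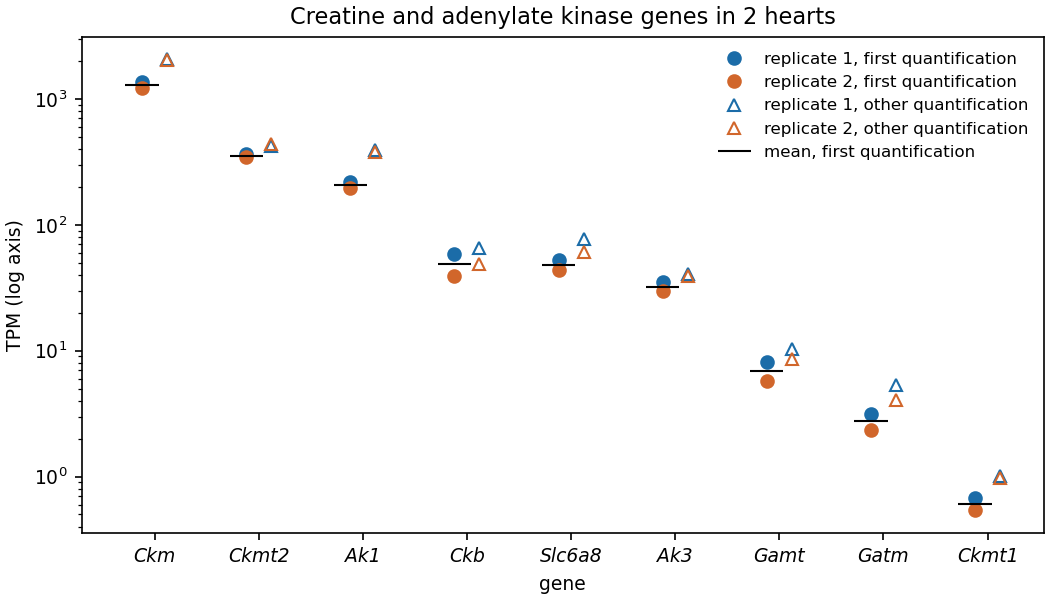
Level of each gene in TPM (log axis) for replicate 1 and replicate 2, in the first deposited quantification (filled circles, with the mean as a bar) and in the other (open triangles). The genes run from Ckm at 1287.31 TPM to Ckmt1 at 0.61. Only Ckb and Slc6a8 trade places between libraries, in the first quantification. Each triangle lies above the circle of the same gene and replicate.

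The authors deposited a second transcript quantification of the same libraries, made directly from reads, in which all 9 genes had higher TPM. Summed over its transcripts, Ckm stood there at 2061.13 TPM in replicate 1 and 2021.53 in replicate 2, and Ak1 at 390.518 and 377.129 TPM. Ckmt2 differed less, at 424.695 and 441.308 TPM. The order of the genes was the same except that Slc6a8, at 77.0525 and 61.2549 TPM, was above Ckb, at 65.8337 and 48.6248 TPM, in both hearts. Ratios between genes differed from those given above. There Ckm exceeded Ckmt2 4.85-fold in replicate 1 and 4.58-fold in replicate 2, and Ak1 5.28-fold and 5.36-fold. Ak1 exceeded Ak3 9.58-fold and 9.69-fold in the same order of libraries.

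The TPM of the other quantification over the first was 1.86 for Ak1, 1.71 for Gatm, 1.64 for Ckmt1 and 1.59 for Ckm, beside a median of 1.31 over 11546 detected protein-coding genes. Estimated counts differed far less, with ratios of 1.07 for Ak1, 1.04 for Gatm, 0.977 for Ckmt1 and 0.950 for Ckm. Ckmt2, which has a single transcript, had a TPM ratio of 1.22 and a count ratio of 0.931. The part of transcript assignment in the TPM differences was not tested.

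Ckm has 3 annotated transcripts, and a noncoding one was given a large part of its TPM in both quantifications. The coding transcript Ckm-201, of 1235 bases, held 63.5% of Ckm TPM in replicate 1 and 63.1% in replicate 2. Ckm-202, annotated as a processed transcript of 671 bases with no coding part, held 33.3% and 33.9%, at 452.34 and 412.36 TPM. Expected counts, which ignore length, were 7822.08 and 7556.42 for Ckm-202 and 29670.4 and 27922.2 for Ckm-201. In the other quantification the noncoding share of TPM was higher, 45.0% and 45.2%, and Ckm-201 held 54.8% and 54.7%. The longer coding transcript Ckm-203 held 3.18% and 2.92% of TPM in the first quantification and 0.197% and 0.191% in the other. The shares differed between hearts by less than 1 percentage point, and the noncoding share differed between quantifications by over 10.

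The exons of these transcripts bear on how the shares can be read. An internal exon on chromosome 7 (19414119 to 19414330) belongs to Ckm-202 and to the coding transcript Ckm-203, and not to Ckm-201. Accordingly the annotated coding part is 1143 bases, or 381 codons, in Ckm-203 and 936 bases, or 312 codons, in Ckm-201. Ckm-203 ends at 19422841 and Ckm-201 at 19421584, so no annotated transcript pairs the internal exon with the nearer end. Ckm-202 begins upstream, at 19404776, and shares 74.5% of its exonic bases with Ckm-203 and 42.9% with Ckm-201. Only 26.1% of its words of 31 bases are in neither of the other Ckm transcripts. How much of the RNA given to Ckm-202 began at its own upstream exons was not tested, since the tables hold no counts per exon. Counted on coding transcripts alone, Ckm stood at 907.21 and 802.71 TPM in the first quantification and at 1133.93 and 1108.72 TPM in the other.

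Ak1 was the gene whose leading transcript depended most on the quantification. The first gave 84.7% and 89.0% of Ak1 TPM to Ak1-202 and the other gave it 0.156% and 0.30%. The other gave 47.4% and 46.6% to Ak1-201, to which the first gave 1.07% and 0%, and 42.1% and 42.7% to the retained-intron transcript Ak1-204, against 2.08% and 1.95%. Ak1-203 held 8.29% and 3.28% in the first quantification and 10.3% and 10.4% in the other.

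These transcripts differ at their 5′ ends. Ak1-203 starts at 32621758, Ak1-202 at 32625437 and Ak1-201 at 32629504, and the annotated coding part is 582 bases in Ak1-202 and Ak1-203 and 630 in Ak1-201. Ak1-202 shares 93.1% of its exonic bases with Ak1-201. Just 1 of its 2033 words of 31 bases is in no other Ak1 transcript, as the short Ak1-206 begins in the same first exon. Ak1-201 has 45 words of its own and Ak1-203 has 121. The quantifications disagreed on these transcripts, so the start site and coding form of Ak1 in these hearts could not be settled. Leaving out noncoding transcripts brought the quantifications closer, with Ak1 at 213.42 and 190.58 TPM in the first and 226.126 and 216.011 TPM in the other.

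Slc6a8 has 13 annotated transcripts and no single one held over 50% of its TPM. Slc6a8-201 held 49.6% and 48.8% and Slc6a8-203 held 34.0% and 33.4% in the first quantification. All exonic bases of Slc6a8-203 lie within Slc6a8-201, and none of its words is its own. In the other quantification the same pair held 27.7% and 31.8%, and 25.4% and 30.5%, while Slc6a8-204, at 0% in the first, held 13.1% and 15.5%. Slc6a8-213 differed between hearts, with 16.5% in replicate 1 and 6.13% in replicate 2 there, and 4.52% and 2.02% in the first.

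The remaining genes had a leading coding transcript in both quantifications, with the exception of Ckmt1. Gatm-201 held 91.4% and 91.9% of Gatm TPM, and 63.1% and 70.0% in the other quantification, where the noncoding Gatm-203 took 33.4% and 25.8% against 0% in the first. Gamt-202, Ckb-201 and Ak3-201 each held over 90% in all 4 values, from 91.3% for Ak3-201 to 100% for Gamt-202. Ckmt2-201 is the only transcript of Ckmt2. Ckmt1 had too few reads for shares: Ckmt1-202 held 100% in replicate 1 and 22.6% in replicate 2, where Ckmt1-209 held 56.6% and Ckmt1-210 held 20.8%. In the other quantification Ckmt1-201 held 46.8% in replicate 1 and 0% in replicate 2.

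**Figure D2:**
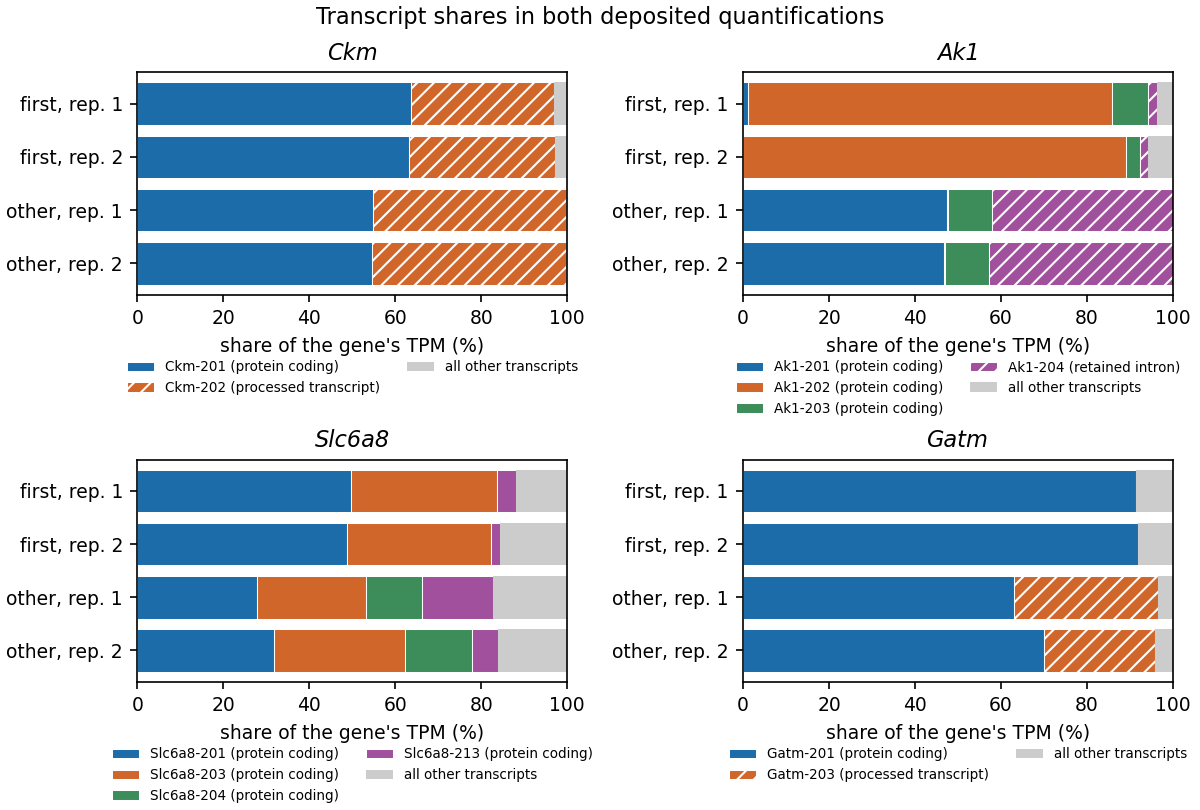
Share of gene TPM (%) held by each transcript that reached 10% in any library, for Ckm, Ak1, Slc6a8 and Gatm, with 1 bar per library and quantification and hatching for noncoding transcripts. Replicates 1 and 2 are close within a quantification for Ckm and less so for Slc6a8-213 and Gatm-203 in the other, while Ak1 passes from 84.7% Ak1-202 to 47.4% Ak1-201 in replicate 1 between quantifications.

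Reads can also be shared with other genes. Of 31-base words in Ckb transcripts, 17.5% occur on the same strand in another gene, most of them in the processed pseudogene Gm12892, which was at 1.17 and 0.87 TPM. The pseudogenes Ckb-ps1 and Ckb-ps2 had 0 counts. For the other 8 genes the share was below 1%, at most 0.618% for Ckmt2. The estimated Ckb count of the other quantification was nevertheless 0.967 of the first, from reads divided in another way. A930016O22Rik, antisense to Ckm, was at 0.06 and 0.08 TPM.

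Between the hearts, most of the 9 genes had similar scaled counts. With 1 library per sample no test across samples was possible, and the exact 95% intervals given here cover counting error only. Of the 8 genes with a mean count of at least 50, Ckb was the only one lower in replicate 2 with an interval that left out equality, beside 20.6% of the 13211 genes at that count. Over all 9 genes, with no count minimum, that number was 7 by total counts and 5 by spike-ins, with Ckmt1 among them in both. It was 2 by DESeq2 size factors or in the other quantification. The median log2 ratio of the 13211 genes was -0.10 by total counts, -0.06 by spike-ins and -0.02 in the last 2. Their share lower in replicate 2 was not computed under those settings. With TMM scaling, Ckm and Ckmt2 were higher in replicate 2 by the interval rule, beside 22.3% of the 13211 genes. None of the 8 differed over 2-fold, beside 1.79%. The median log2 ratio of replicate 2 over replicate 1 was -0.04 over the 8 genes, from -0.35 to 0.16, and 0.01 over all genes.

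Ckb had 2464 expected counts in replicate 1 and 1753 in replicate 2, a log2 ratio of -0.35 with an interval of -0.44 to -0.26. Replicate 1 was 1.27-fold higher after scaling. Of the 13211 genes with a mean count of at least 50, 16.9% differed by at least as much in either direction. Ckb was lower in replicate 2 under every scaling tried, with log2 ratios between -0.57 and -0.35. Markers of several other cell types, whether or not known to make Ckb, were lower in the same heart: the 6 adipocyte markers with enough counts had a median log2 ratio of -4.90, with the brown fat gene Ucp1 at 239.01 TPM in replicate 1 and 5.02 in replicate 2. The 4 smooth muscle markers had a median of -0.64 and a summed level of 309.78 and 194.6 TPM. Schwann cell and neuron markers summed to 18.86 and 3.38 TPM, and 5 of 6 atrial markers were lower in replicate 2. Fibroblast and macrophage markers each had a median of -0.49. Their part in the Ckb difference was not tested.

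Ckmt2 had a log2 ratio of 0.16 with an interval of 0.13 to 0.19, which became -0.07 when TPM was compared in place of scaled counts. The ratio of Ckm was 0.05 with an interval of 0.03 to 0.07. Its direction turned with the scaling, to -0.05 by total count, -0.02 by spike-ins and -0.16 by TPM. The median log2 ratio of the 13211 genes was -0.10, -0.06 and -0.21 under the same settings. Among the 13211 genes with a mean count of at least 50, 45.0% differed between hearts by at least as much as Ckmt2. The share was 79.4% for Ckm. Markers of ventricular heart muscle had a median log2 ratio of 0.15 on the same scale as the main values.

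Intervals of the other genes held equality. The ratio of Slc6a8 was -0.04 with an interval of -0.10 to 0.01, that of Ak3 -0.03 with -0.11 to 0.05, and that of Ak1 0.03 with -0.00 to 0.07. Gatm stood at -0.19 with -0.50 to 0.11 and Gamt at -0.25 with -0.55 to 0.04, so a difference of the size seen in Ckb lay inside both intervals. Ckmt1 was below the count minimum, and its ratio of -0.88 had an interval of -1.94 to 0.06.

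**Figure D3:**
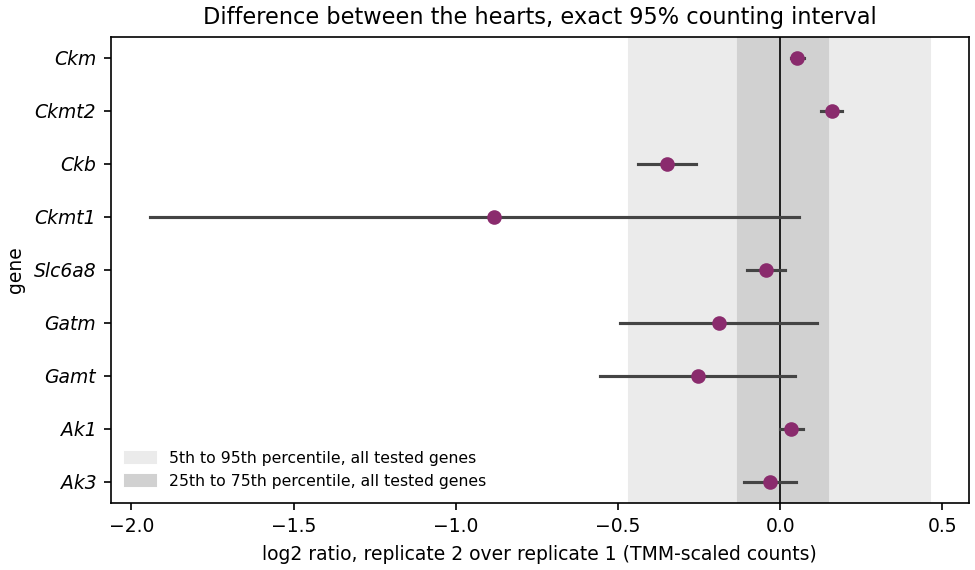
Log2 ratio of replicate 2 over replicate 1 from TMM-scaled expected counts, with exact 95% counting intervals as bars and the spread of 13211 genes as shading (5th to 95th and 25th to 75th percentiles). Ckb at -0.35 and Ckmt1 at -0.88, the latter with a long interval, lie outside the darker band, together with Gatm, Gamt and Ckmt2 just beyond its edges, and Ckm lies near 0, where its direction turns with the scaling.

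The genes around these circuits were read from 6 lists by role. Of 40 genes, 33 were at 1 TPM or more in both hearts. Among the 32 with a mean count of at least 50, 8 were lower in replicate 2, 12 were higher and 12 had an interval that held equality, beside 20.6% lower and 22.3% higher over all genes at that count. None differed over 2-fold, beside 1.79%. Their median log2 ratio was 0.03, from -0.34 to 0.39.

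Among 10 other adenylate and nucleoside monophosphate kinases, 6 were detected. Those detected included the guanylate kinase Guk1, at 31.05 and 30.33 TPM, and Ak6, at 32.79 and 26.28 TPM. Both were near Ak3 and far below Ak1. Ak5, Ak7, Ak8 and Ak9 were under 1 TPM in both hearts. All 6 nucleoside diphosphate kinases, which pass phosphate among nucleotides, were detected, and Nme2 at 494.5 and 448.7 TPM was above Ckmt2, followed by Nme3 at 18.98 and 19.12 TPM and Nme1 at 11 and 9.72 TPM.

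AMP is handled by deaminases and by the AMP-activated kinase, and 8 of 10 genes in that list were detected. The regulatory subunits Prkag1, at 39.15 and 33.75 TPM, and Prkag2, at 34.47 and 25.27 TPM, and the catalytic subunit Prkaa2, at 29.78 and 25.93 TPM, had the highest means in the first quantification, followed by the subunit Prkab1 at 25.84 and 25.93 TPM. The skeletal muscle deaminase Ampd1, at 0.05 and 0 TPM, and Prkag3, at 0.72 and 0.77 TPM, were under 1 TPM in both hearts.

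Carriers and channels that bring adenine nucleotides across the mitochondrial membranes were abundant. Slc25a4, the muscle form of the ADP/ATP carrier, stood at 1663.8 and 1546.85 TPM, above Ckm, while the channel Vdac1 stood at 359.8 and 324.18 TPM, near Ckmt2. Slc25a5, the more widely expressed carrier, was at 337.22 and 248.56 TPM, with a log2 ratio of -0.22. The carrier Slc25a31, known from the testis, was at 0.16 and 0.06 TPM and was the only one of the 6 genes not detected.

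All 4 genes of M-band docking and creatine kinase users were detected at high levels. Atp2a2, the calcium pump of the sarcoplasmic reticulum, stood at 3266.13 and 2883.92 TPM. The M-band proteins, to which muscle creatine kinase binds, stood at 444.23 and 436.79 TPM for Myom1 and at 328.42 and 371.54 TPM for Myom2. Myom2 was higher in replicate 2, with a log2 ratio of 0.39.

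Methyl donor supply and creatine export were detected for all 4 genes. The S-adenosylmethionine synthetase genes Mat2a, at 94.24 and 84.71 TPM, and Mat2b, at 39.73 and 37.62 TPM, were well above Gamt, the enzyme that uses the methyl group. Ahcy, which clears the product of that reaction, stood at 5.15 and 3.56 TPM. Slc16a12, a creatine transporter of the monocarboxylate transporter family, was at 1.96 and 1.31 TPM.

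**Figure D4:**
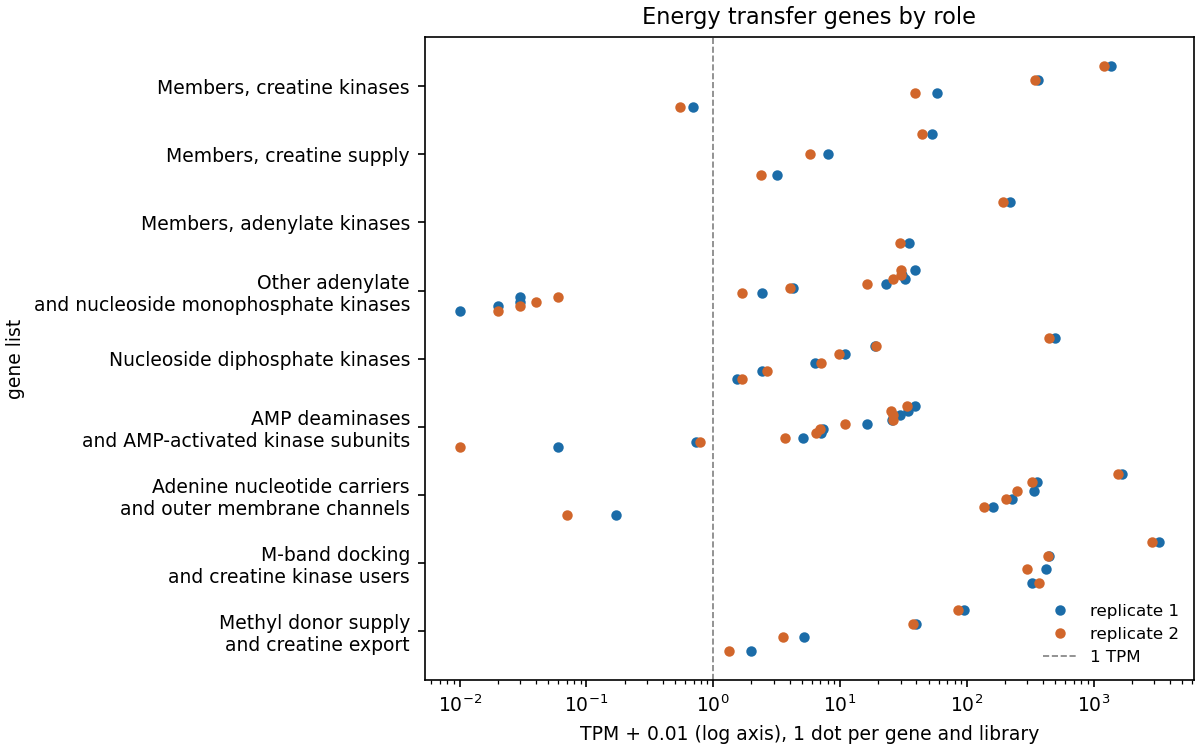
TPM + 0.01 (log axis) of the 9 genes by role and of 40 other genes of energy transfer in 6 lists, with 1 dot per gene and library and a dashed line at 1 TPM. Atp2a2, Slc25a4 and Ckm lie farthest right in both hearts, and 7 of the 40 genes, most of them adenylate kinases, lie left of the line.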

How the data were processed

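Total RNA from the heart of male B6CASTF1/J mice was measured in 2 libraries, with the replicate numbers of the labels. Each was treated as a separate sample, although whether they come from separate animals is not settled by the labels. The authors used the mm10 build and the GENCODE M21 annotation, per the labels and the file headers. Expected counts, TPM and FPKM were deposited by the authors per gene and per transcript, from transcriptome alignments, and the authors' other transcript table holds estimated counts and TPM derived directly from reads. Program names, versions and the use of strand in counting are not given in the sources used here. Reads from CAST alleles that differ from the B6-based reference could be lost alike in both libraries.

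Levels are means ± SD of TPM over 2 libraries, and a gene at 1 TPM or more in both was called detected. For ratios, expected counts were rounded, scaled by edgeR 4.0.16 TMM factors (R 4.3.3) over all annotated genes, and 0.5 was added. Exact 95% Clopper-Pearson intervals of the ratio (scipy 1.17.1) cover counting error only: without molecular identifiers, reads are not independent molecules. With 1 library per sample no p-value was computed. The biological coefficient of variation of the pair was 0.147 (edgeR, intercept-only design, 16166 genes with at least 10 counts in both). Rows that name no gene, 26248 in each table, held 1.00e-05% and 7.91e-06% of the counts and were left out. Spike-ins held 0.576% and 0.562%. The ratio and its interval were tried on simulated counts that varied by counting error only, so spread between samples was not covered. Promoters came from RefSeq, and words of 31 bases from GENCODE transcripts. Alternatives were DESeq2 1.42.0 size factors, total counts, spike-ins, another filter and pseudocount, FPKM, TPM rescaled over nuclear protein-coding genes, the other quantification and each replicate left out.

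The genes and lists were chosen with earlier results of these data known. Named were all 9 genes, their transcripts with at least 10% of gene TPM in any library and quantification, from each list the 3 highest genes, those over 2-fold and those under 1 TPM in both, and the 2 genes nearest in level to Ckm and Ckmt2. Some genes that this rule names are not reported here. Other genes, such as Ucp1, Cdc37l1, Gm12892, Myom2 and Slc16a12, were chosen after their values were seen. The red blood cell, fibroblast, endothelial and macrophage marker lists summed to 12065.2, 1666.39, 303.01 and 41.02 TPM in replicate 1 and to 12945.1, 1047.52, 239.56 and 24.48 in replicate 2.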

Additional observations from a re-analysis of the deposited data

How the results depend on the processing

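The summed level of the 9 genes, 1987.18 TPM, was 3039.53 in the other quantification, 1609.16 as FPKM and 4944.29 when TPM was rescaled over nuclear protein-coding genes, and ranged from 1876.86 to 2097.51 with each replicate left out. The Ckm share of creatine kinase TPM, 76.1%, was 80.6% in the other quantification and 69.5% in expected counts, which ignore length, and 75.9% to 76.3% with each replicate left out. Of all 9 genes, with no count minimum, the number lower in replicate 2 was 1 by TMM and 2 by DESeq2 size factors. It was 7 by total count and 5 by spike-ins, with Ckmt1 among them in both, and 2 in the other quantification. The share of all genes lower in replicate 2 was computed by TMM only. The cause of the difference between settings was not tested. The median log2 ratio of all genes was -0.02 by DESeq2 size factors, -0.10 by total count, -0.06 by spike-ins and -0.02 in the other quantification. The ratio of Ckm, 0.05, turned to -0.0544 by total count, -0.0190 by spike-ins and -0.16 by TPM. That of Ckmt2, 0.16, turned to -0.0663 by TPM, where the median of all genes was -0.21. The number of detected genes in the 6 lists, 33, stayed between 26 and 34 under every threshold, quantification and replicate tried. Among the 8 genes with several transcripts, 1 transcript had a mean share above 50% in 7 genes in the first quantification and in 5 in the other. No paired analysis was possible because there was only 1 group. Depth limits Ckmt1 above all, with 29 and 14 counts.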

Other observations

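In the authors' deposited table, each TPM value comes with a credibility interval. Of the 18 values of the 9 genes in 2 libraries, 12 lay inside their interval. Those of Ckm and Ckmt2 lay above it in both libraries, 4 values in all, and the 2 values of Ckmt1 lay below it. The share of values inside the interval was not computed over all genes. These counts therefore do not set the 9 genes apart from others.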
